A study of Homo sapiens with 4 samples.

Results

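The peaks described here are 4826 sites of Flag-FLI1 binding that lay away from promoters, were called with and without IFN-γ, and carried at their summit none of 3 sequences by which FLI1 and AP-1 sites are commonly recognised. They were selected from the 39654 peaks of the IFN-γ library in 3 steps. A peak had to overlap a peak of the control library by at least 1 bp, to lie farther than 3 kb from the TSS of every annotated transcript, and to hold within 100 bp of its summit no ETS octamer (CAGGAAGT or CCGGAAGT), no AP-1 heptamer (TGACTCA or TGAGTCA) and no run of 4 or more tandem GGAA units, on either strand. Of 24203 shared peaks, 9887 were distal by this definition, and the 4826 peaks were 48.8% of these (47.8% to 49.8%). The other shared distal peaks comprised 1734 with a tandem repeat, 1308 with the octamer and no repeat, and 2019 with the AP-1 heptamer and neither of the others. Ranges in parentheses are exact 95% confidence intervals. They cover counting error only.

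HK1, an established nasopharyngeal carcinoma line, overexpressed Flag-tagged FLI1 in both groups. The first group received PBS as the control and the second received IFN-γ, each for a day. An anti-Flag antibody was used for the precipitation, which recovers the introduced protein and not the cells' own FLI1. There was 1 library per condition and no replicate, so no effect of the treatment was tested. The sources used here do not name the promoter driving Flag-FLI1 or say whether the cells were a clone, and the input libraries are not analysed here.

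FLI1 belongs to the ETS family of transcription factors, which share a DNA-binding domain that contacts a GGAA core. The bases beside the core set how tightly a given family member binds. ETS factors often occupy enhancers together with AP-1 (dimers of FOS and JUN proteins), and the FLI1 part of the EWSR1-FLI1 fusion of Ewing sarcoma is known for binding tandem GGAA repeats. Enhancers are stretches of regulatory DNA that can lie in introns or far from the gene they act on, so the nearest gene named below is a position and not a target.

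Leaving out the exact octamer did not leave out ETS-like sequence. A GGAA core stood within 100 bp of the summit in 98.8% of the 4826 peaks (98.5% to 99.1%), against 82.2% of windows of the same width centred 1 kb to either side. A near-octamer, that is an octamer with its core kept and exactly 1 of the other 4 letters changed, stood there in 61.2% (59.8% to 62.6%), against 14.1% of the flanking windows (13.4% to 14.8%). Among the other shared distal peaks it stood in 58.5% of AP-1 peaks, 34.8% of octamer peaks and 17.4% of repeat peaks. The name given to these peaks, distal peaks without an ETS motif, therefore holds only for the exact octamer. Over all IFN-γ peaks, promoters included, the share was 97.9% for the core and 45.3% for the near-octamer. The core share of the 4826 peaks was thus near that of all peaks.

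The 100 bases either side of the summit are printed for 5 of the 7 strongest peaks, because they show what stood in place of the excluded motifs. Strength was the sum of a peak's ranks by −log10 p in both lists. The sequences are the plus strand of GRCh38, with the summit as the middle base and near-octamers in capitals. A near-octamer on the minus strand reads as its reverse complement, so that ATTTCCTG stands for CAGGAAAT and GCTTCCTG for CAGGAAGC.
ANTXR1, intron, chr2:69178336-69178536: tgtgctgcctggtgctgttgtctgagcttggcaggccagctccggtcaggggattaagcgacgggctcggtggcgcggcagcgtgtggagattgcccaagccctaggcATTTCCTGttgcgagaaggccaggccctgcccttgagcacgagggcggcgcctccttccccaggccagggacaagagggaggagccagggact
SKI, intron, chr1:2255819-2256019: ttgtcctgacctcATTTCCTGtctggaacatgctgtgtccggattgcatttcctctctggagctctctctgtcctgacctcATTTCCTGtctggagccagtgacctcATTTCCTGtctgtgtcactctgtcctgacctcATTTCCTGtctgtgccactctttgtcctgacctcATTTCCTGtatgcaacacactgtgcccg
GLI3, intron, chr7:42097802-42098002: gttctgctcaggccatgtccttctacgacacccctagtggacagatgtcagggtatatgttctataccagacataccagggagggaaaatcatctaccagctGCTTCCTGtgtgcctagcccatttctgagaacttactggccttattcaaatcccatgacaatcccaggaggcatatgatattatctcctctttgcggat
Short arm of chromosome 21, chr21:8219893-8220093: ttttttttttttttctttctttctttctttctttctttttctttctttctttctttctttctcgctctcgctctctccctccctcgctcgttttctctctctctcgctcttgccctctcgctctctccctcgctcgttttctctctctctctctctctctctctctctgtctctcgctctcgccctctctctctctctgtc
Near SPRY4, intron of a gene that does not code for protein, chr5:142357019-142357219: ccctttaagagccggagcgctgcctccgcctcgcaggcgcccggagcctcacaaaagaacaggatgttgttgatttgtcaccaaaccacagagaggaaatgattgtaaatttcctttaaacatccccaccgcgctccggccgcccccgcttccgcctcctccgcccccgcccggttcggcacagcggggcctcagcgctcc

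Of these 5 windows, 3 held a near-octamer, and in 2 of these it was CAGGAAAT. The SKI window held 5 copies of CAGGAAAT on the minus strand inside a short repeated unit. The SPRY4 window had 3 cores and no near-octamer, and the chromosome 21 window, made up largely of C and T, had no core at all.

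The peak in an intron of ANTXR1, a cell-surface receptor that binds collagen, was the strongest by summed rank. Its summit carried 366 fragments in the IFN-γ library and 286 fragments in the control library, where a fragment count is the pileup recovered at the summit from the deposited fold enrichment and p-value. After scaling for depth the IFN-γ to control ratio was 0.879 (0.751 to 1.03). The summits of the libraries lay 3 bp apart.

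The peak in SKI, which encodes a repressor of TGF-β signalling, carried 350 fragments with IFN-γ and 138 without, a scaled ratio of 1.74 (1.43 to 2.14). The peak in GLI3, a transcription factor of the Hedgehog pathway, had a fold enrichment of 64.7 with IFN-γ and 68.8 without, the latter from 145 fragments, and a scaled ratio of 0.952 (0.765 to 1.19). Near SPRY4, which encodes an inhibitor of receptor tyrosine kinase signalling, the counts were 183 and 116. Of these peaks, the SKI interval alone excluded a ratio of 1 under the scaling used here. Another scaling would move every ratio, so this contrast depends on it.

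The chromosome 21 peak had the highest counts of all 4826 in the IFN-γ library, 476 fragments, with 327 in the control library. Its local background was also the highest, at 55.2 and 28.5 fragments against medians of 2.55 and 1.46 fragments over the 4826 peaks. The nearest TSS of a protein-coding gene, that of TPTE, was 2302 kb away. Its count is therefore given beside its background, and the part of read alignment to repeated sequence in it was not tested.

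Others of the 10 strongest peaks lay in introns too. DLC1, a tumour suppressor gene, had an intronic peak with 361 and 136 fragments and a ratio of 1.82 (1.49 to 2.24). A pair of peaks lay in introns of BCL2L1, which encodes the anti-apoptotic protein BCL-XL. The first had 313 and 107 fragments with a ratio of 2.01 (1.61 to 2.53), and the second had 268 and 117 with a ratio of 1.57 (1.26 to 1.97), the nearest TSS of the second being that of COX4I2. TNRC18 had an intronic peak with 174 and 141 fragments and a ratio of 0.848 (0.675 to 1.07). Summits of these peaks lay 1 to 45 bp apart between the libraries.

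Near-octamers were placed at the point of highest signal. Within 20 bp of the summit they occurred 8.10 times per 1000 peaks per bp, against 0.861 times at 300 to 500 bp, a 9.40-fold excess. In the 2954 peaks with a near-octamer the nearest lay a median of 20.5 bp from the summit (19.5 to 21.5), and within 25 bp in 58.1%. GGAA cores of all kinds showed a 2.72-fold excess over the same distances. The near-octamer excess around AP-1 summits was 10.0-fold, and around octamer summits, where the octamer itself is in place, it was 3.42-fold.

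**Figure D1:**
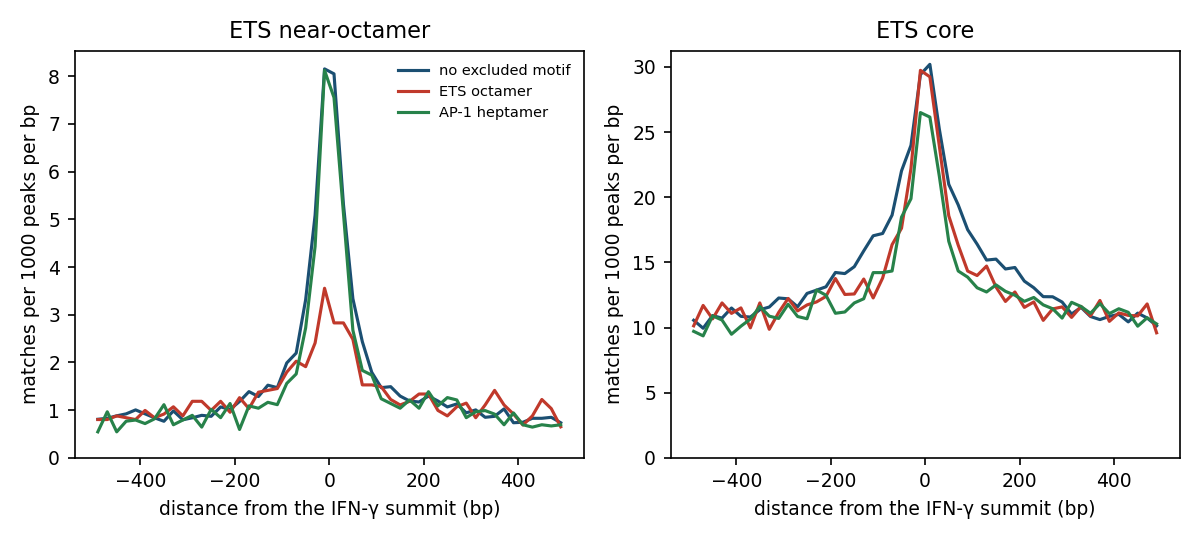
Matches per 1000 peaks per bp (y axis) of the ETS near-octamer (left) and of the ETS core (right) by distance in bp from the IFN-γ summit (x axis), in shared distal peaks with no excluded motif (blue), the ETS octamer (red) or the AP-1 heptamer (green). Near-octamers of the 4826 peaks with no excluded motif rise from 0.861 at 300 to 500 bp to 8.10 within 20 bp of the summit, close to the level in AP-1 peaks.

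The letter that differed from the octamer was most often the last. A near-octamer with only letter 8 changed stood in 31.2% of the 4826 summits against 6.22% of flanking windows, and letter 7 in 23.7% against 4.38%. Letter 1 was changed in 15.9% against 3.13%. Letter 2, where the octamer allows A or C, was changed least often, in 2.49% against 1.25%.

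By whole sequence CAGGAAAT was the commonest, in 17.7% of summits (16.6% to 18.8%) against 1.74% of flanking windows. CAGGAAGG followed with 11.5%, CAGGAAGC with 10.8%, GAGGAAGT with 6.34% and AAGGAAGT with 6.11%, each against 1.06% to 2.20% of flanks. CCGGAAGC and CCGGAAAT were rarer and had the highest ratios of summit to flank among the near-octamers. CCGGAAGC was in 2.74% of summits and 0.176% of flanking windows, and CCGGAAAT in 1.89% and 0.145%. These forms also marked stronger peaks, with median counts of 36.5 fragments in the IFN-γ library at CCGGAAGC and 40 fragments at CCGGAAAT, against 26 fragments over all 4826 peaks.

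The bases beside the cores were also tallied. These cores include those of near-octamers and short tandems, in windows chosen to lack the exact octamer, so they give no separate support. Over the 7022 cores within 25 bp of a summit, the base just before the core was A in 60.03%, against 37.0% of the 4974 cores in the flanking windows. That base was C in 9.91% against 3.76%. The base before that was C in 35.4% against 23.5%. The base just after the core was A or G, in 38.4% and 44.9% of cores against 34.4% and 32.3%.

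The 1872 peaks with no near-octamer were not empty of related sequence. CAGGAAAC, which differs from the octamer in both of its last letters, stood in 12.3% of them (10.9% to 13.9%) against 1.04% of their flanks. CCGGAT, which lacks the GGAA core, stood in 6.94% (5.83% to 8.19%) against 1.34%. These motifs were chosen after the sequences had been examined. With them added to the near-octamers, 68.5% of the 4826 summits held a match (67.2% to 69.8%), against 16.1% of flanking windows.

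Peaks without a near-octamer were weaker. Their median count was 23 fragments with IFN-γ (22 to 24) and 15 in the control library, against 28 (27 to 28) and 17 for peaks with one. The 57 peaks with no core at all were weaker still, at 16 (14 to 18) and 14 (12 to 16) fragments. By number of near-octamers, the median IFN-γ count was 28 fragments with 1, 28 with 2 and 29 with 3 or more, and the median fold enrichment was 7.72 (7.52 to 7.93), 7.95 (7.50 to 8.32) and 8.63 (7.87 to 9.21).

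Several motifs of other factors were commoner at the summits than 1 kb away. The AP-1 heptamer with A or T in its middle (TGAATCA or TGATTCA), which the selection did not remove, was in 10.0% of summits (9.22% to 10.9%) against 3.15% of flanks. The composite site of C/EBP and ATF proteins (TGATGCAA) was in 2.45% against 0.466%, and the C/EBP site (TTGCNNAA) in 15.5% (14.5% to 16.5%) against 8.88%. In other classes the C/EBP site was in 14.8% of octamer summits, 12.5% of AP-1 summits and 4.04% of repeat summits. The heptamer with A or T was in 8.18%, 6.79% and 1.38% of them. C/EBP proteins are basic leucine zipper factors of epithelial and myeloid differentiation.

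Sites of other enhancer factors followed. FOX factors (TGTTTNC, which holds a core where N is C and can then overlap CAGGAAAC) were matched in 22.4% of summits against 15.2% of flanks. TEAD factors, the DNA-binding partners of YAP in the Hippo pathway (GGAATG, which contains a core), were matched in 18.2% against 10.8%, and RUNX factors (TGTGGTT) in 5.16% against 3.34%. Other classes had like shares except at repeats. Repeat summits held a median of 18 GGAA cores, against 4 in the 4826 peaks. The part of this in their lower shares of other motifs was not tested. FOX was in 22.4% of AP-1, 19.3% of octamer and 11.1% of repeat summits. TEAD was in 16.8%, 15.1% and 8.77% of these, and RUNX in 4.46%, 6.12% and 1.21%. The core of the CTCF site, which marks boundaries of chromatin domains, was in 2.80% of summits (2.35% to 3.30%) against 0.767% of flanks, and in 2.03% of all IFN-γ peaks. Over the other shared distal peaks it was in 0.231% of repeat summits, 1.61% of octamer summits and 1.29% of AP-1 summits.

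Motifs of the interferon pathway were also searched. The IRF-type pair of GAAA runs with 2 bases between them, which can overlap a core, was in 5.59% of summits against 2.90% of flanks. The STAT site (TTCNNNGAA), which can overlap a core too, was in 7.15% against 5.36%. In other classes the STAT site was in 8.56% of octamer, 7.48% of AP-1 and 2.71% of repeat summits. The IRF-type pair was in 3.06%, 4.26% and 21.7% of these. Outside that pathway, the GC-rich SP site (GGGCGGG) was in 6.32% against 2.07%. It was in 12.8% of all IFN-γ peaks, and in 4.13% of octamer, 3.17% of AP-1 and 1.04% of repeat summits.

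Some motifs were level or rarer at the summits. SOX (AACAAAG) was in 4.95% of summits against 4.70% of flanks, and GRHL (AACCNGTT), a site of grainyhead factors of epithelia, was in 1.14% against 1.04%. The p53-family pair of CATG runs with 6 bases between them was in 0.394% (0.237% to 0.614%) against 1.28%. The E-box CAGGTG was in 13.6% against 20.1%. Base composition moved with these shares, since the median GC content was 50.2% at the summits and 45.8% in the flanks, and its part in them was not tested.

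**Figure D2:**
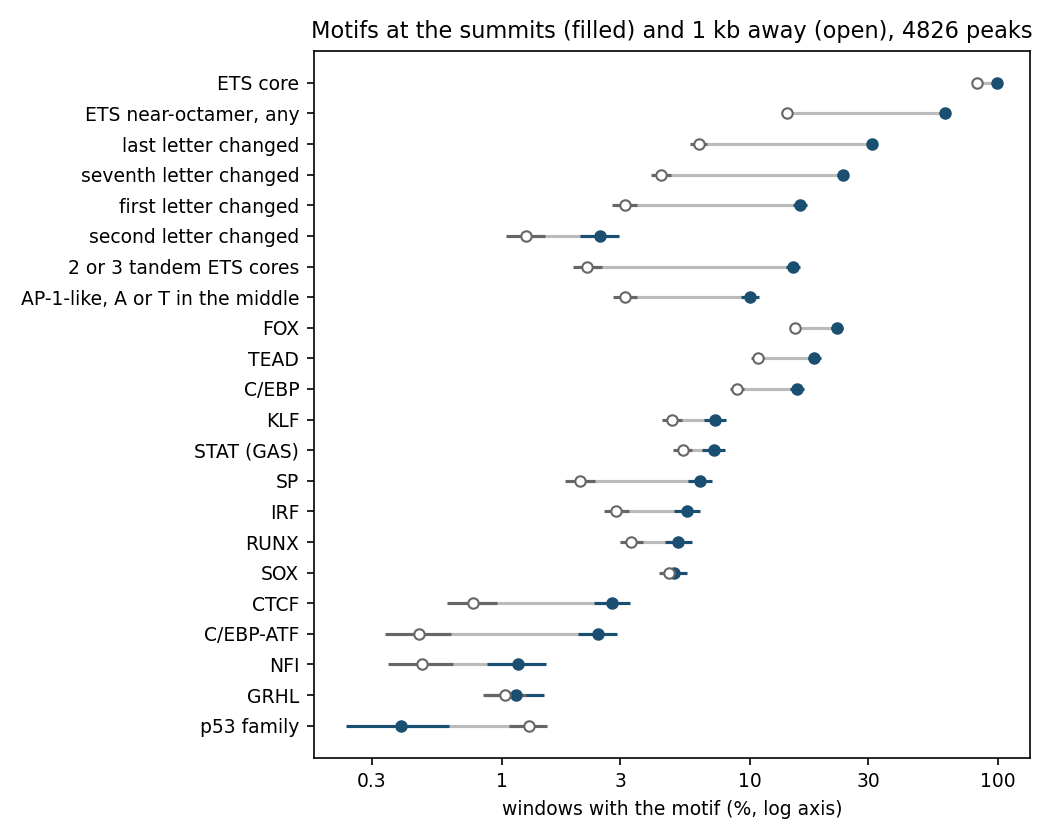
Share of windows with each motif (x axis, %, log scale) at the summits of the 4826 peaks (filled) and in windows of the same width centred 1 kb either side (open), with exact 95% intervals as bars. The ETS near-octamer moves most in absolute terms, from 14.1% to 61.2%, SOX and GRHL barely move, and the p53-family pair is rarer at summits.

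CpG-rich summits, with a GC content of at least 55% and a ratio of observed to expected CpG of at least 0.6, made up 7.50% of the 4826 peaks (6.77% to 8.28%). The share was 0.404% in repeat peaks, 2.52% in octamer peaks and 1.78% in AP-1 peaks, and 23.7% over all IFN-γ peaks, promoters included. Short runs of 2 or 3 tandem GGAA units, below the length removed, were in 14.9% of summits against 2.22% of flanks. The 32 bases at the summit occurred once in the genome in 96.3% of the 4826 peaks and in 59.98% of the repeat peaks. The share was 97.2% in octamer peaks and 97.2% in AP-1 peaks.

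The excluded motifs were absent from the summit windows by selection but not from the peaks. Elsewhere within the IFN-γ peak an excluded motif stood in 23.5% of the 4826 (22.3% to 24.7%), the AP-1 heptamer in 17.4%, the octamer in 5.55% and the tandem repeat in 2.38%. Around the control summit an excluded motif stood in 7.998% (7.25% to 8.80%). That share was 2.94% where the summits of the libraries lay within 50 bp and 17.3% where they lay farther apart. A control window close to the IFN-γ summit shares most of its bases with the window cleared by the selection. The lower share there therefore follows from the selection and is not a separate result.

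The 4826 peaks were moderate in height. The median summit carried 26 fragments in the IFN-γ library (25 to 26), with a lowest of 7 and a highest of 476, and 16 fragments in the control library, from 6 to 327. Median fold enrichment was 7.31 with IFN-γ and 6.64 without. Over all peaks of each list the medians were 22 fragments and a fold of 6.57 with IFN-γ, and 16 fragments and 6.81 without. In the IFN-γ library the medians of the other classes were higher, at 33 fragments for repeat peaks (32 to 34), 34 for octamer peaks (32 to 36) and 30 for AP-1 peaks (29 to 31). In the control library the classes overlapped more, at 14, 18 and 16 fragments.

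**Figure D3:**
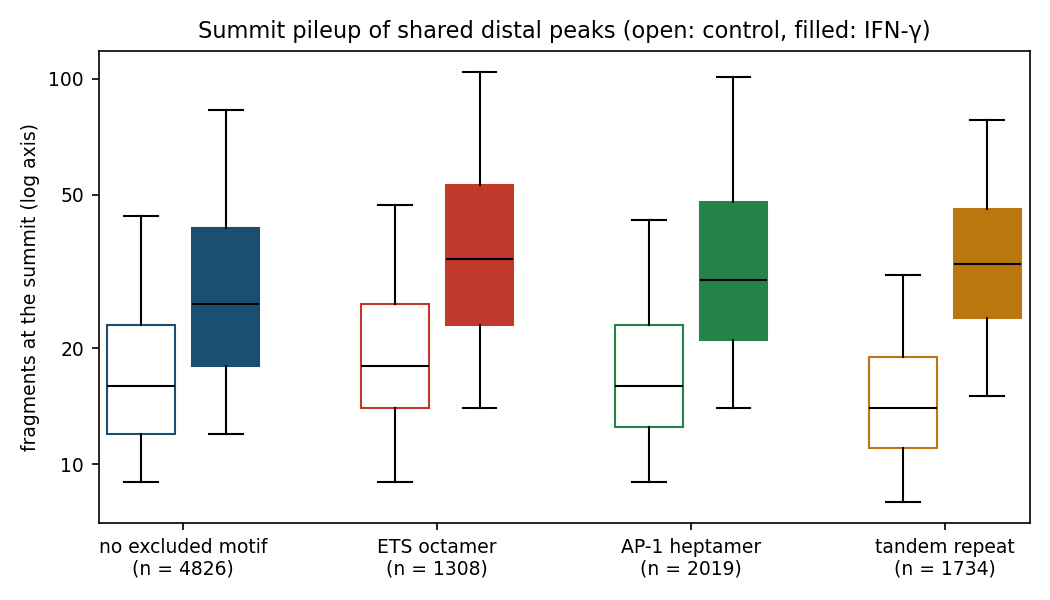
Fragments at the summit (y axis, log scale) in the control library (open boxes) and the IFN-γ library (filled boxes) for the 4 classes of shared distal peaks. Boxes span the quartiles with the median as a line, and whiskers reach the 5th and 95th percentiles. Peaks with no excluded motif have the lowest IFN-γ median, 26 fragments, while their control median of 16 equals that of AP-1 peaks.

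Most peaks had summits near each other in both libraries, though less often than peaks of the other classes did. In 20.2% they lay within 10 bp. The summits lay within 50 bp of each other in 64.9% of the 4826 (63.5% to 66.2%), at a median distance of 32 bp. The share was 70.8% in repeat peaks, 76.1% in octamer peaks (73.7% to 78.4%) and 70.7% in AP-1 peaks.

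Near-octamers and summit agreement both went with strength. The peaks were ordered by the geometric mean of their fragment counts in the libraries and were cut into 5 equal parts after the values had been examined. The share with a near-octamer was 51.3% in the weakest part (48.1% to 54.5%) and 72.02% in the strongest (69.1% to 74.8%). The median distance between summits was 67 bp in the weakest and 16 bp in the strongest. The C/EBP site went from 11.7% (9.74% to 13.9%) to 20.6% (18.1% to 23.3%), while the median GC content stayed between 49.8% and 50.7%.

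**Figure D4:**
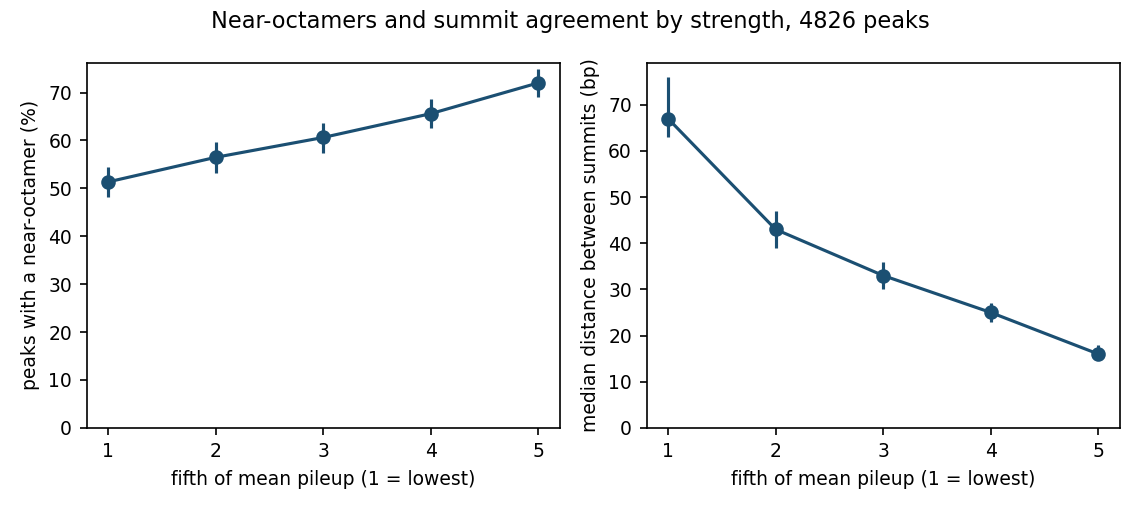
Share of peaks with a near-octamer (left, %) and median distance between the control and IFN-γ summits (right, bp) in 5 equal parts of the 4826 peaks by mean pileup, weakest first, with 95% intervals. The share goes from 51.3% to 72.02% and the distance from 67 bp to 16 bp.

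The ratio of IFN-γ to control counts was scaled by the lowest backgrounds of the lists, which put the IFN-γ library 1.46 times deeper. It uses the signal by which the peaks were called shared, so it is a description of a pair of libraries. The median was 1.11 over the 4826 peaks (1.09 to 1.12), 1.55 in repeat peaks, 1.28 in octamer peaks and 1.28 in AP-1 peaks, and 0.870 in shared promoter peaks. The median of the 4826 lay on either side of 1 according to the scaling, at 0.867 when the median backgrounds were used and 1.27 when promoters were set to 1. A change of scaling multiplies every ratio alike, so the order of the classes does not depend on it.

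Peak by peak, most ratios could not be told from the median of all shared pairs, 0.996. The interval of the ratio lay wholly above it in 621 of the 4826 peaks, 12.9%, against 11.8% of all 24203 shared pairs. It lay wholly below it in 143 peaks, 2.96%, against 8.93% of all pairs. The shares above were 29.99% in repeat peaks, 21.4% in octamer peaks and 21.2% in AP-1 peaks. The share above was thus near the background for the 4826 peaks. All intervals leave out the variation between replicates.

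The ratio moved with base composition and with signal. From the lowest to the highest of 5 ranges of GC content the median ratio of the 4826 peaks was 1.33, 1.25, 1.14, 1.06 and 0.870. Shared promoter peaks in the same ranges had 1.44, 1.28, 1.19, 1.07 and 0.768, and repeat peaks had 1.60, 1.58, 1.498, 1.35 and 1.27. By mean fragment count the 4826 peaks went from 0.973 in the weakest range to 1.33 in the strongest, and repeat peaks from 1.17 to 1.73. The mean and the ratio are built from the same counts, and every peak had to be called in both lists. The relation to signal is therefore a description, and the part of the selection in it was not tested. With 1 library per condition, treatment and library preparation cannot be told apart as the source of this relation to GC content.

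**Figure D5:**
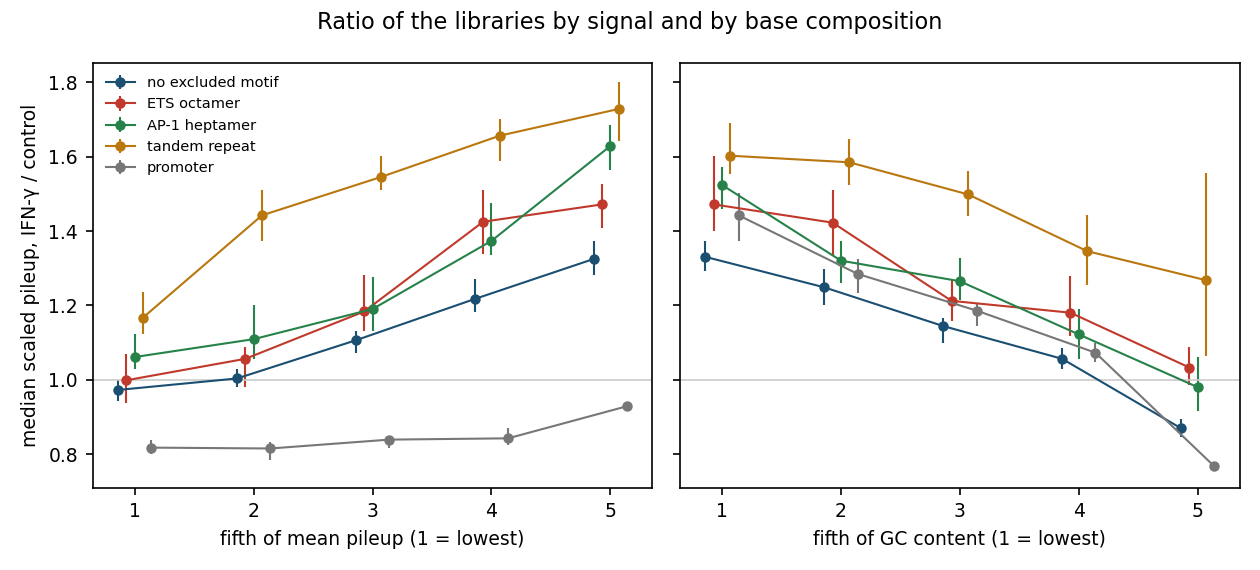
Median scaled ratio of IFN-γ to control pileup (y axis) in 5 ranges of mean pileup (left) and of GC content (right), cut at equal parts of the peaks with no excluded motif, for the 4 distal classes and promoter peaks. Bars are 95% intervals of the median. In the highest GC range the ratio is 0.870 in peaks with no excluded motif, 0.768 at promoters and 1.27 in the 19 repeat peaks there.

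The kind of near-octamer moved with the ratio and with GC content together. The 815 peaks whose near-octamers all had letter 7 changed had a median ratio of 1.28 (1.24 to 1.33) and a GC content of 45.8%. The 1083 with only letter 8 changed had 1.04 (1.03 to 1.07) and 53.7%. CAGGAAAT peaks had a ratio of 1.27 (1.23 to 1.32), and CCGGAAGC peaks 1.00 (0.930 to 1.09). The part of base composition in these differences was not tested.

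Among peaks with at least 50 fragments over both libraries, the highest ratio was in an intron of PPP2R2C, which encodes a regulatory subunit of protein phosphatase 2A, with 65 fragments against 9 and a ratio of 4.96 (2.46 to 11.3). A peak in an exon of LRRK1, a kinase, had 91 against 13 and a ratio of 4.81 (2.68 to 9.37). A peak 97.6 kb from the TSS of PHLDA1 had 107 against 16 and a ratio of 4.59 (2.70 to 8.32). All of these held CAGGAAAT, and their summits lay 17 to 46 bp apart. A high ratio in an intron of ZFHX3 (4.69) came from summits 693 bp apart, so the counts compared were not from the same position.

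The lowest ratio was in an intron of ELL, which encodes a transcription elongation factor, with 13 fragments against 294 and a ratio of 0.0304 (0.0160 to 0.0527), but these summits lay 1024 bp apart. Low ratios in introns of TGFB1 (0.112), APBB2 (0.189) and SH2B3 (0.229) likewise came from summits 553 to 699 bp apart. Of the 5 lowest, the intronic peak of ATP2B4, a calcium pump of the plasma membrane, was the one with close summits, 18 bp apart. It had 28 fragments against 91 and a ratio of 0.211 (0.133 to 0.326), with a GC content of 70.6%.

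Just inside the 3 kb limit stood an intronic peak of LGR4, with its edge 3001 bp from a TSS and 22 and 14 fragments in the IFN-γ and control libraries. CSNK1E followed at 3004 bp with 73 and 30 fragments, and a peak nearest to SLC45A1 at 3006 bp with 71 and 30. Just outside it were peaks near PADI4 and in GSE1, both at 2999 bp, with 45 and 66 fragments and with 54 and 25. A peak in TMC3 at 2998 bp had 18 and 15.

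By position, 53.3% of the summits lay in introns (51.9% to 54.8%), 43.2% between genes and 3.502% in exons. The median distance to the nearest TSS of any transcript was 13.3 kb, and 10.7% of summits lay over 50 kb from one. That share was 18.5% in repeat peaks (16.7% to 20.4%), 11.0% in octamer peaks and 13.5% in AP-1 peaks. Another of the 4826 peaks lay within 10 kb of 17.6% of them.

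The peaks were the nearest to the TSS of 3071 of 20020 protein-coding genes, 15.3%, and 2059 of these genes had 1 peak. PREX1, which encodes a Rac exchange factor of cell migration, had the most, with 10 peaks of 11 to 85 fragments with IFN-γ and 11 to 53 without. A single peak of the 10 lay in the gene body, and the farthest was 428 kb away. BCOR, a component of a Polycomb complex, had 9 peaks, 6 of them in the gene, with 9 to 50 and 6 to 33 fragments. The interval of the ratio lay below the median of all pairs in 3 of these, against 8.93% of all shared pairs.

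MYC, which encodes a transcription factor of cell growth, also had 9 peaks among 22 shared distal peaks, none in the gene body and the nearest 4.26 kb away. They carried 16 to 80 fragments with IFN-γ and 12 to 36 without, at a median ratio of 1.32, and in 4 of the 9 the interval of the ratio lay above the median of all pairs, against 11.8% of all shared pairs. SLC38A2, an amino acid transporter, had 8 peaks with a median ratio of 2.09, and 5 of them lay above. Its strongest peak had 200 fragments against 59. MTHFD1L, a mitochondrial enzyme of folate metabolism, also had 8, of which 7 lay in the gene. The strongest of these had 256 fragments against 66, a ratio of 2.66 (2.03 to 3.55) and no near-octamer.

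NTMT1, a methyltransferase of protein N termini, had 9 peaks, and the intervals of all 9 included the median of all pairs. Genes with 7 peaks included DUSP6, a phosphatase that acts on ERK, with a median ratio of 1.37, and NR2F1, an orphan nuclear receptor, with 1.34. DNAJB6, a chaperone, had 1.19 and PALM2AKAP2 1.20. They were taken in order of name from all genes with 7.

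Genes were then read in lists chosen for this cell type and treatment, against the 15.3% of all protein-coding genes. The 4826 peaks, 48.8% of all shared distal peaks, were 25 of 45 at squamous genes and 26 of 46 at growth factor and TGF-β genes. They were 10 of 18 at adhesion, 9 of 15 at Hippo, 16 of 39 at ETS and 8 of 19 at AP-1 genes. At IFN-γ response genes they were 6 of 12 and at chromatin genes 3 of 5. The high gene shares were thus not particular to the 4826 peaks among shared distal peaks. Of 16 regulators of squamous and epithelial identity, 11 had at least 1 peak, 68.8%. TFAP2A, an AP-2 transcription factor, had 7, and EHF, KLF4 and TP63 had 3 each. The strongest peak of TFAP2A had 35 fragments with IFN-γ and 45 without, a ratio of 0.534 (0.333 to 0.850). That of KLF4, an epithelial Krüppel-like factor, had 107 and 45, a ratio of 1.63 (1.14 to 2.37). The strongest near EHF, an epithelial ETS factor, had 86 fragments with IFN-γ and 54 without, a ratio of 1.09 (0.769 to 1.57). That in TP63, the p63 gene of basal epithelium, had 62 and 21, a ratio of 2.03 (1.22 to 3.503), and held CCGGAAAT.

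Of 15 growth factor and TGF-β genes, 9 had a peak. SMAD3, a transducer of TGF-β signals, had 7, and the strongest carried 65 and 37 fragments. TGFBR2, a receptor for TGF-β, and SMAD7, an inhibitor of the pathway, had 4 each, with 118 and 43 fragments at the strongest of TGFBR2 and 14 and 19 at that of SMAD7. EGFR, the receptor for epidermal growth factor, had 3, the strongest with 75 and 22 fragments and a ratio of 2.34 (1.44 to 3.96).

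Adhesion and Hippo genes had peaks in 8 of 16 and 6 of 12. LAMB3, a laminin chain of the basement membrane, had 2, the stronger with 70 and 26 fragments, and PLEC, which encodes the cytoskeletal linker plectin, had 2, with 56 and 28. The peak in ITGA2, an integrin subunit that binds collagen, had 40 and 12 fragments. TEAD1 had 3, the strongest with 45 and 15. A peak near AMOTL2, which binds YAP, was higher at 147 and 77 fragments. It had no near-octamer and lay 39.7 kb from the TSS.

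Of 25 ETS genes 10 had a peak. Beside EHF, these included ETS1, ETS2 and ETV3 with 2 peaks each, at 12 to 26 fragments at the strongest in either library. Of 13 AP-1 genes 5 had a peak, 38.5%, with FOSL2 at 4 and JUN, ATF3 and BATF at 1 each. Their strongest summits had 26 to 35 fragments with IFN-γ and 9 to 19 without, against medians of 26 and 16 over the 4826 peaks. The ATF3 summits lay 660 bp apart between the libraries, so its counts were not from the same position.

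Of 28 IFN-γ response genes 3 had a peak, 10.7%, near the 15.3% of all protein-coding genes. Peaks called only with IFN-γ, or lying within 3 kb of a TSS, could not count here by selection. IFNGR2, a subunit of the IFN-γ receptor, had 3 peaks, and SOCS3, an inhibitor of cytokine signalling, had 2. The strongest of IFNGR2 had 47 and 29 fragments and the strongest of SOCS3 had 36 and 35, with summits 721 bp and 1258 bp apart. CIITA, the regulator of MHC class II genes, had 1 intronic peak with 44 fragments against 10, a ratio of 3.02 (1.498 to 6.73) and summits 25 bp apart. Of 15 chromatin genes 2 had a peak, 13.3%. The stronger of the 2 in ARID1A, a subunit of the SWI/SNF remodeller, had 87 and 67 fragments, and the peak near KMT2C had 36 and 16. Genes with much intergenic or intronic sequence around them have more room for a distal peak, and the part of that in these shares was not tested.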

How the data were processed

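Flag ChIP libraries of HK1 cells overexpressing Flag-FLI1 were analysed, 1 for each of 2 conditions, PBS and IFN-γ. The methods name Cutadapt 1.18 for trimming, Bowtie2 2.3.4.1 for alignment to GRCh38, picard for removal of duplicates, and MACS 2.1.2, run with a cutoff of 0.01 on p, for peak calling. Whether the input entered the calling is not given in the sources used here. In the deposited lists each peak has a fold enrichment, a −log10 p-value, a −log10 q-value and a summit offset, all by the authors. The lists did not reach down to that cutoff: their lowest −log10 p was 3.52 (control) and 3.46 (IFN-γ), and their lowest −log10 q was 1.30 and 1.32. The deposited score was not used.

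The pileup and background at each summit were recovered as the whole fragment count and Poisson mean that return both deposited values of that peak, fold and −log10 p (largest relative error 6.21e-06). The lists give no read totals. Each peak was paired with the control peak of largest overlap, and its pileup ratio was divided by 1.46, the ratio of the lowest backgrounds (1.54 and 1.06 fragments). Ratios have exact binomial intervals, shares exact Clopper-Pearson intervals and medians order-statistic intervals, all at 95%. The intervals on shares and medians take peaks as independent. Fragments are not independent molecules beyond the removal of duplicates.

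TSSs, exons and genes came from GENCODE 44. Motifs were matched as exact letters on both strands within 100 bp of the summit, and in 2 windows per peak centred 1 kb away. A match is a description of letters, not of binding.

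The members and lists were chosen with earlier results of these data known. Named were the 10 peaks with the lowest summed rank, the 5 highest and lowest ratios with at least 50 fragments, the peaks nearest the 3 kb limit, the 10 genes with most peaks and up to 4 genes per list. Some items that these rules pick are not reported here. Ordered parts, base composition classes and the motifs CAGGAAAC and CCGGAT were added after values had been seen. Recovery, overlap, nearest-TSS, motif and interval steps were tested on simulated data. Versions were samtools 1.23.1, matplotlib 3.10.9, pysam 0.24.0, pandas 2.3.3, scipy 1.17.1, numpy 2.4.6 and Python 3.11.15.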

Additional observations from a re-analysis of the deposited data

How the results depend on the processing

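No paired analysis was possible because there was a single library of either condition, so none could be left out either. The following settings took a share or median outside its 95% interval, or a count past 1.5 times. The 4826 peaks became 2888 with a limit of 10 kb from the TSS. Their share of shared distal peaks, 48.8%, became 46.5% at q below 1e-05, 47.5% with an overlap of 50% of each peak, 46.6% with summits within 100 bp, 49.9% and 47.2% with limits of 1 and 10 kb, 60.3% and 41.3% with motifs excluded within 50 and 200 bp, 37.5% over the whole peak, and 47.1% and 41.5% with 3 and 2 tandem units excluded. The intronic share became 55.02% and 50.2% at 1 and 10 kb. The median pileup of 26 fragments became 31 at q below 1e-05 and 28 with summits within 100 bp. The median ratio of 1.11 became 1.13 and 1.08 with motifs excluded within 50 bp and over the whole peak, 0.867 scaled by median backgrounds, which lies below 1, 1.27 scaled to promoters, and 1.14 in peaks of 45 to 55% GC (chosen after seeing the data). The near-octamer share of 61.2% became 64.8% at q below 1e-05, 63.8% with summits within 100 bp, 58.7% with the 50 bp window, 31.2% with the last letter changed only, 14.1% in the flanks, and 68.5% with CAGGAAAC or CCGGAT added (chosen after seeing the data). The core share became 99.4% at q below 1e-05. The share with summits within 50 bp became 73.9% at q below 1e-05, 67.9% with the 50% overlap, 79.5% with summits within 100 bp and 66.5% over the whole peak. Excluded motifs at the control summit, 7.998%, became 5.94% at q below 1e-05, 4.43% with summits within 100 bp, 20.9% and 2.89% with windows of 50 and 200 bp, and 1.32% over the whole peak. Some of these moves follow from the setting itself. The 79.5% comes with its own limit on summit distance, and the control-summit shares depend directly on the width cleared of motifs. The 14.1% is the flanking share used for comparison above. The other 89 of 125 recomputed values stayed within these bounds. Most summits rest on few fragments, which limits the precision of ratios of single peaks.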
